A study of Mus musculus with 24 samples.

Results

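The 10 genes described here, Scd1, Fasn, Acaca, Acly, Elovl6, Pnpla3, Angptl8, Srebf1, Mlxipl and Thrsp, were taken by symbol from a table of 32561 genes measured in mouse aorta. All 10 were found once each, and all 10 passed the filter on low values that left 9933 genes for testing. The mice were on the 129S1/SvlmJ background, were 44 to 53 days old, and gave 1 aorta library each, in 6 groups of 4. There were males and females with Bmp2+/+, and males carrying 2 copies of the mutated Bmp2 allele ∆UCS. Each kind was either Kl/Kl, homozygous for a Klotho mutation and labelled with renal disease, or control, labelled with healthy renal function. Controls were Klotho+/Kl, except 1 Bmp2+/+ male that was Klotho+/+. Control and mutant mice came from the same kind of heterozygous crosses, and moistened chow was put on the cage floor after weaning because Klotho-deficient mice were smaller and weaker. There were no female ∆UCS mice among the libraries. Adipoq, the adiponectin gene of adipocytes, served as the reference for fat tissue.

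De novo lipogenesis turns citrate into fatty acids. ATP citrate lyase (Acly) makes acetyl-CoA, acetyl-CoA carboxylase 1 (Acaca) makes malonyl-CoA, fatty acid synthase (Fasn) builds palmitate, Elovl6 lengthens it and stearoyl-CoA desaturase 1 (Scd1) adds a double bond. SREBP1, the product of Srebf1, and ChREBP, the product of Mlxipl, are the transcription factors that switch these enzymes on in fed, insulin-exposed liver and fat. Pnpla3, a lipid droplet protein, Angptl8, a secreted protein that acts on lipoprotein lipase, and Thrsp (Spot 14), a nuclear protein of lipogenic tissues, are known targets of the same program. A dissected aorta carries perivascular fat, which is partly brown in rodents, so these genes are read out in a tissue that mixes vessel wall and fat.

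RefSeq promoter windows of build GRCm38.p6 were found for 9 of the 10 genes, 12 windows of 300 bases in all, each running from 250 bases before to 50 after an annotated start. The expression table is on mm39, so its coordinates are not set against these. The 150 bases before the start of Fasn, of Thrsp and of the downstream start of Mlxipl are shown because the first 2 are lipogenic targets with several CCAAT boxes, which bind NF-Y, a partner of SREBP1. The Mlxipl window is the only one of the 12 with a classical sterol regulatory element. Capitals mark matches to CCAAT on either strand (ATTGG when reversed) and, in Mlxipl, to TCACNCCAC.
Fasn (GRCm38.p6 chr11:120824548-120824697, minus strand): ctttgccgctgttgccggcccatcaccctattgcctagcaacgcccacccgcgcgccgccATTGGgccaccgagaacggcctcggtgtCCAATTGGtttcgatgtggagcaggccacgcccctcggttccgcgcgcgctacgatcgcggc
Thrsp (GRCm38.p6 chr7:97417551-97417700, minus strand): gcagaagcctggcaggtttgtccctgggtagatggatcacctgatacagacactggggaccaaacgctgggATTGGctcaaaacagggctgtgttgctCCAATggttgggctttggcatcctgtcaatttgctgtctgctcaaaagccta
Mlxipl (GRCm38.p6 chr5:135106741-135106890, plus strand): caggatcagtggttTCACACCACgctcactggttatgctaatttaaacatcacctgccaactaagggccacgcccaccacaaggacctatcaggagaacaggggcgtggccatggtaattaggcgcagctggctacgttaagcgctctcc

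In Fasn the matches lay at −90 to −86, −62 to −58 and −59 to −55 from the start, the last pair overlapping on opposite strands. In Thrsp they lay at −79 to −75 and −52 to −48, and the Mlxipl element lay at −136 to −128. Searched on both strands, CCAAT was found in 7 of the 12 windows, from 6 genes (Acly, Fasn, Mlxipl, Pnpla3, Srebf1 and Thrsp), against 37.4% of all 32817 windows in the table. TCACNCCAC was found in 1 of the 12, against 1.24% of all windows. The E-box CACGTG was found in 1, the upstream Mlxipl window, against 7.15%. TCACGTGA, which contains the E-box, was found in 0 against 0.975%, and the carbohydrate response element form was found in 0 against 0.558%. These matches describe the letters of the windows and say nothing about binding.

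The libraries held an estimated 20605000 to 60947000 gene reads each, and mitochondrial genes took 40.2% to 61.2% of a library's TPM. The deposited TPM followed the genomic span of a gene, so this is not a share of reads. In 2 libraries the X-linked Xist and the Y-linked Ddx3y went against the labelled sex. The library labelled Bmp2+/+ male Kl/Kl replicate 1 had Xist at 11.4 TPM and Ddx3y at 0.0138, where the other labelled males had Xist at 0.00631 to 0.541 and Ddx3y at 2.14 to 5.62. The library labelled Bmp2+/+ female Kl/Kl replicate 2 had Xist at 0.0281 and Ddx3y at 4.81, where the other labelled females had 15.3 to 34 and 0.00208 to 0.122. Spp1 (osteopontin) was at 0.459 and 0.347 TPM in these 2 libraries, at 35.3 to 286 in the other 10 Kl/Kl libraries and at 0.199 to 5.54 in the 12 controls. Results are given without these 2 libraries, and counts and medians also for all 24 as labelled. The targeted gene Kl had 0 to 17 estimated reads in the 10 Kl/Kl libraries kept and 3 to 30 in controls, ranges that overlap, so at this level in aorta it could not serve to check the Klotho labels. Smooth muscle markers were present in every library, for example Acta2 at 24.3 to 212 TPM, as were adipocyte markers, for example Fabp4 at 841 to 1951.3 TPM. Among the libraries used, mitochondrial genes took 47.3% to 61.2% of TPM in controls and 40.2% to 55.8% in Kl/Kl, and the part of this difference in the Klotho results was not tested. In tissue RNA, fewer cells of a type and less RNA per cell cannot be told apart.

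Across the 3 Klotho comparisons, lipogenic genes were lower in Kl/Kl aortas, with a fitted change below 0 for all 10 genes in each. Those of Acly and Elovl6 in Bmp2+/+ males turned to 0.36 and 0.08 without Kl/Kl replicate 4. Averaged over the 3 comparisons, a contrast chosen after the data were seen, 9 of the 10 fell (limma on log2(TPM + 1), Benjamini-Hochberg adjusted p under 0.05 over all genes tested), where 3.53% of all genes were called lower and 23.4% higher. At an unadjusted p under 0.05 the same number, 9, were lower, against 5.19% of all genes. The exception was Srebf1. The 9 include Pnpla3 and Acaca, which passed the filter only or mainly through libraries where they were high. With no filter 8 were called, these 2 among them, against 1.36% of all genes called lower. Fasn fell by 3.12 ± 0.49 on the log2 scale (SE, adjusted p = 0.000367), an 8.72-fold difference, and Scd1 fell by 2.50 ± 0.39 (adjusted p = 0.000348), a 5.64-fold difference. These folds are on the log2(TPM + 1) scale, which understates the change of genes at low TPM.

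Comparison by comparison the tests called fewer. In ∆UCS males 4 genes fell, Scd1, Acaca, Angptl8 and Pnpla3, against 0.111% of all genes called lower. Pnpla3 could pass the filter only through libraries where it was high, and 3 remain without it. Acaca, which is among those 3, was at most at 0.688 TPM in ∆UCS Kl/Kl. It too passed the filter mainly through libraries where it was high. With no filter 0 of the 4 were called. In Bmp2+/+ males 0 were called, against 0.0604%, and in Bmp2+/+ females 0, against 0.0201%. None of the 10 was called higher in the 3 comparisons, against 1.04% of all genes in Bmp2+/+ males, 2.58% in Bmp2+/+ females and 0.534% in ∆UCS males. At an unadjusted p under 0.05, limma put 5 of the 10 lower in Bmp2+/+ males (2.39% of all genes), 6 in Bmp2+/+ females (1.85%) and 8 in ∆UCS males (2.96%). On the estimated reads, limma voom called 0, 1 (Fasn) and 3 (Acaca, Angptl8 and Pnpla3) in the same order, against 0.139%, 1.21% and 0.495% of all genes it called lower. The median change of the 10 genes was −0.71 in Bmp2+/+ males, −1.01 in Bmp2+/+ females and −1.41 in ∆UCS males, and over all genes tested it was 0.09, 0.29 and 0.26. After median-of-ratios scaling, which brought the median over all genes to −0.02, −0.02 and 0.02, the 10 genes had medians of −0.81, −1.30 and −1.66. That scaling called 0, 2 (Fasn and Elovl6) and 5 (the same 4 and Fasn), and all 10 for the mean of the 3, against 0.252%, 1.54%, 0.584% and 10.6% of all genes called lower. Over all genes it also evened out the directions. Lower and higher calls were 6 and 103 as deposited and 25 and 148 so scaled in Bmp2+/+ males, 2 and 256 then 153 and 223 in Bmp2+/+ females, 11 and 53 then 58 and 71 in ∆UCS males, and 351 and 2328 then 1055 and 864 for the mean.

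When the 2 libraries were put back under their labels, 0 of the 10 were called by limma in each of the 3 comparisons, as were 0 genes of any kind. At an unadjusted p under 0.05 there were 603, 1498 and 1628 genes in either direction. Of the 10, 2, 3 and 8 were lower at that p, against 0.876%, 1.25% and 2.73% of all genes, and limma voom also called 0. The changes in ∆UCS males were the same as without the 2 libraries, since neither is in that comparison, but the adjusted p of Scd1, Acaca, Angptl8 and Pnpla3 became 0.151. For the mean of the 3 comparisons 7 of 10 were called (Scd1, Fasn, Acaca, Elovl6, Pnpla3, Angptl8 and Thrsp), against 1.9% of all genes called lower. In the fits not set against a fat reference, those 7 were called for the mean under every setting and every left-out library in which they were tested. The ∆UCS calls were less stable. The count of 4 went to 0 without ∆UCS control replicate 3 or ∆UCS Kl/Kl replicate 2 or 3, to 1 without control replicate 1 or Kl/Kl replicate 1, to 2 without control replicate 2, and to 5 without Kl/Kl replicate 4. In the fits that still called a member, 5 to 27 genes were called lower in all.

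**Figure D1:**
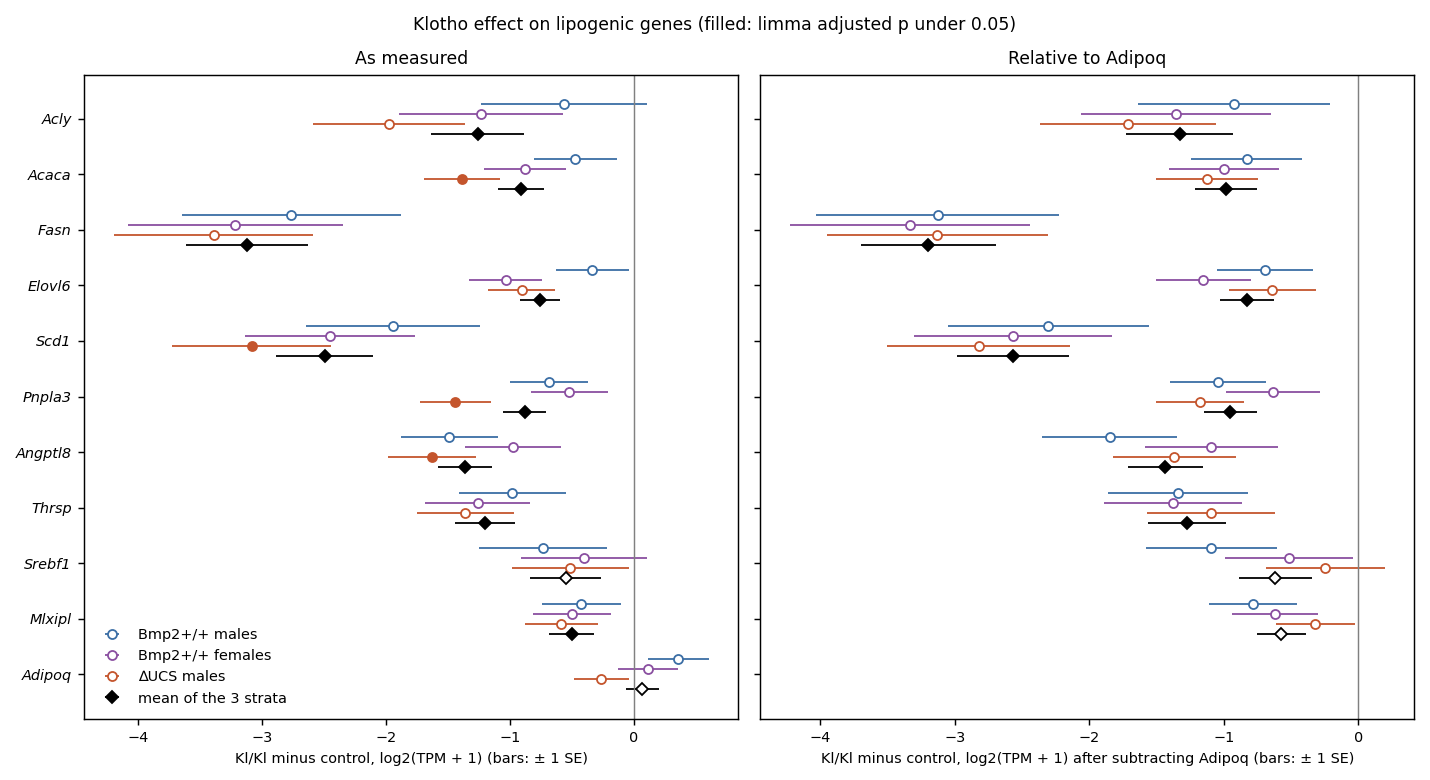
Fitted Klotho effect on each gene (Kl/Kl minus control, log2(TPM + 1), bars ± 1 SE) as measured on the left and after subtracting Adipoq on the right, for the 3 comparisons and their mean, with filled symbols where the limma adjusted p was under 0.05. On the left the symbols of the 10 lipogenic genes lie below 0 and those of Adipoq lie on both sides of 0, at 0.36, 0.12 and −0.26.

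Fasn (ENSMUSG00000025153, mm39 chromosome 11, 120696672 to 120715374, minus strand) carried the largest fitted change of the set. It had 3464 to 295815 estimated reads per library. In Bmp2+/+ males it was at 141, 182, 79.8 and 129 TPM in controls and at 155, 6.54 and 6.06 TPM in Kl/Kl. One Kl/Kl male, replicate 2, therefore sat among the controls and the groups overlapped. In Bmp2+/+ females it was at 57.6, 421, 244 and 184 TPM in controls and at 12.8, 13.7 and 36.6 in Kl/Kl, without overlap. In ∆UCS males it was at 236, 156, 381 and 234 TPM in controls and at 16.8, 24.5, 8.82 and 60.4 in Kl/Kl, again without overlap. The mean was 2.38 times as high in controls as in Kl/Kl in Bmp2+/+ males, 10.8 times in females and 9.10 times in ∆UCS males. The limma changes were −2.77 ± 0.88 (adjusted p = 0.19), −3.22 ± 0.87 (0.0549) and −3.39 ± 0.80 (0.0618), none past the threshold alone. The 2 libraries left out had Fasn at 194 and 266 TPM, within or above the control ranges of their labelled groups, and with them the changes were −1.85, −2.28 and −3.39.

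Scd1 (ENSMUSG00000037071, chromosome 19, 44382894 to 44396319, minus strand) had 6360 to 602556 estimated reads per library. In Bmp2+/+ males it was at 211, 276, 220 and 125 TPM in controls and at 135, 65.7 and 21.1 in Kl/Kl, where only replicate 2 reached the control range. In Bmp2+/+ females it was at 324, 357, 504 and 248 TPM in controls and at 21.9, 56.6 and 193 in Kl/Kl. In ∆UCS males it was at 794, 182, 402 and 220 TPM in controls and at 16.0, 42.5, 29.4 and 109 in Kl/Kl. Neither the female nor the ∆UCS groups overlapped. The fall in ∆UCS males passed the test at −3.09 ± 0.64 (adjusted p = 0.0261), an 8.50-fold difference. The change was −1.94 ± 0.70 in Bmp2+/+ males (adjusted p = 0.28) and −2.45 ± 0.69 in females (0.0632). The libraries left out held 123 and 221 TPM, and with them the male and female changes were −1.51 and −2.0.

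The enzymes upstream of Fasn, and Elovl6 downstream of it, were lower by less. Acaca (ENSMUSG00000020532, chromosome 11, 84020498 to 84292478, plus strand) was at 2.76, 1.83, 4.91 and 1.89 TPM in ∆UCS controls and at 0.315, 0.387, 0.256 and 0.688 in ∆UCS Kl/Kl. It fell there by 1.39 ± 0.31 (adjusted p = 0.0409), and all 4 Kl/Kl libraries lay below all 4 controls. Acaca reached 1 TPM in 14 libraries, but not in ∆UCS Kl/Kl, so its calls, alone or within a count, are given as a description. In Bmp2+/+ females it was at 0.817, 3.32, 2.5 and 1.64 TPM against 0.296, 0.385 and 1.22 (−0.88 ± 0.33, adjusted p = 0.136), and in males at 1.06, 1.96, 0.951 and 1.51 against 1.83, 0.365 and 0.246 (−0.47 ± 0.34, adjusted p = 0.639). Both of those pairs of groups overlapped, through 1 Kl/Kl library each. Small predicted genes overlap Acaca, as they do Elovl6 and Mlxipl, and whether counting used strand is not given in the sources used here.

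Acly (ENSMUSG00000020917, chromosome 11, 100367179 to 100418827, minus strand) varied widely among controls. It was at 9.54, 13.7, 3.75 and 19.2 TPM in Bmp2+/+ male controls, at 7.33, 26.9, 27.1 and 10.4 in females and at 17.6, 20.7, 74 and 13 in ∆UCS males. The matching Kl/Kl values were 16.9, 3.57 and 3.48, then 4.19, 3.5 and 13.8, then 5.28, 5.51, 3.04 and 9.71. Only the ∆UCS groups were apart. The change was −0.56 ± 0.67, −1.24 ± 0.66 and −1.98 ± 0.61 in that order (adjusted p = 0.812, 0.248 and 0.109), and the mean of the 3 was −1.26 ± 0.38 (adjusted p = 0.0211). That call was lost with all 24 libraries (−0.99, adjusted p = 0.0702), without Bmp2+/+ male Kl/Kl replicate 4 (−0.95, 0.138) and without female Kl/Kl replicate 3 (−1.15, 0.0506). Without that male replicate 4 the change in Bmp2+/+ males was 0.36.

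Elovl6 (ENSMUSG00000041220, chromosome 3, 129326004 to 129432145, plus strand) showed its clearest gap in females, at 2.85, 4.09, 4.3 and 3.47 TPM in controls and 0.712, 0.819 and 2.72 in Kl/Kl. The change there was −1.04 ± 0.29 (adjusted p = 0.0632). In ∆UCS males it was at 4.2, 1.71, 4.62 and 2.61 TPM against 0.999, 1.76, 0.894 and 1.23 (−0.90 ± 0.27, adjusted p = 0.0925), with 1 Kl/Kl library just above the lowest control. The female groups did not overlap. In Bmp2+/+ males the groups overlapped, at 1.62, 2.8, 1.66 and 1.81 against 1.97, 1.61 and 0.687 (−0.34 ± 0.30, adjusted p = 0.725), and the change was 0.08 without Kl/Kl replicate 4. The mean of the 3 fell by 0.76 ± 0.17 (adjusted p = 0.00403).

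**Figure D2:**
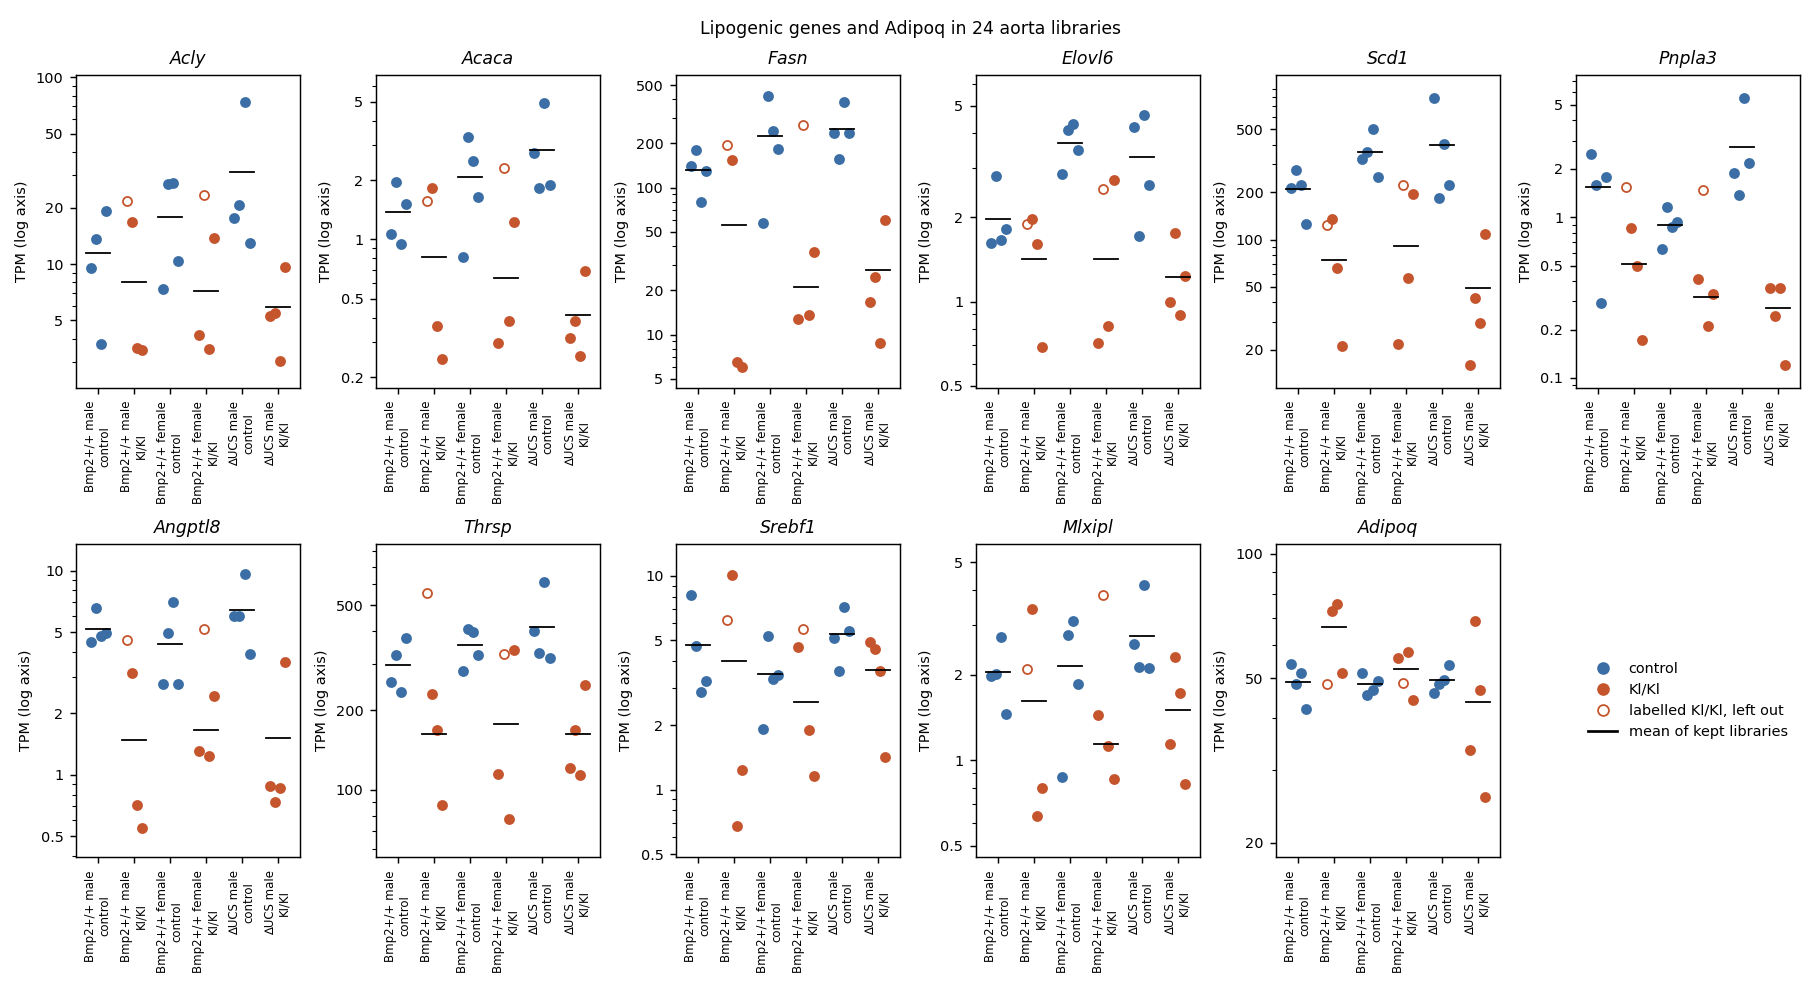
TPM of each lipogenic gene and of Adipoq in every library (log axis), by group, with filled points for kept libraries, open points for the 2 left out and a line at the mean of the kept libraries. Fasn in ∆UCS males is at 156 to 381 in controls and 8.82 to 60.4 in Kl/Kl, while Adipoq is at 46 to 53.7 in controls and 25.8 to 68.8 in Kl/Kl.

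Among the targets outside the enzyme chain, Angptl8 and Thrsp were lower in all 3 comparisons with little or no overlap. Angptl8 (ENSMUSG00000047822, chromosome 9, 21746806 to 21748644, plus strand) was at 4.49, 6.56, 4.78 and 4.95 TPM in Bmp2+/+ male controls and at 3.17, 0.715 and 0.552 in Kl/Kl (−1.49 ± 0.39, adjusted p = 0.0801). In females it was at 2.8, 4.98, 6.99 and 2.8 TPM against 1.31, 1.24 and 2.42 (−0.98 ± 0.39, adjusted p = 0.143). In ∆UCS males it was at 6.01, 5.99, 9.67 and 3.91 TPM against 0.883, 0.735, 0.865 and 3.56, and it fell by 1.63 ± 0.36 (adjusted p = 0.0391). No pair of groups overlapped. This is the least deeply counted member, with 31 to 737 estimated reads per library, and it lies inside Dock6 on the opposite strand, whose median was 0.563 TPM.

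Thrsp (ENSMUSG00000035686, chromosome 7, 97062145 to 97066938, minus strand) had 12552 to 121388 estimated reads. It was at 256, 325, 234 and 375 TPM in Bmp2+/+ male controls and at 230, 169 and 87.5 in Kl/Kl, without overlap but with replicate 2 next to the lowest control. In females it was at 283, 408, 397 and 323 TPM against 115, 77.8 and 338, where Kl/Kl replicate 4 lay among the controls. In ∆UCS males it was at 400, 331, 610 and 316 TPM against 121, 169, 114 and 250, without overlap. The changes were −0.98 ± 0.43, −1.26 ± 0.42 and −1.36 ± 0.39 (adjusted p = 0.414, 0.106 and 0.0841), and the mean fell by 1.2 ± 0.24 (adjusted p = 0.00252).

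Pnpla3 (ENSMUSG00000041653, chromosome 15, 84052038 to 84071438, plus strand) reached 1 TPM in 10 libraries, 8 controls and the 2 libraries left out, and in 0 of the 10 Kl/Kl libraries kept. It therefore passed the filter on low values through the groups where it was high, and its calls, alone or within a count, are given as a description. Pnpla3 was at 1.88, 1.37, 5.52 and 2.16 TPM in ∆UCS male controls and at 0.364, 0.243, 0.364 and 0.121 in Kl/Kl, and it fell by 1.44 ± 0.29 (adjusted p = 0.0182). The mean TPM was 10.0 times as high in controls, more than the 2.72-fold of the log2(TPM + 1) scale, because its values lie near the pseudocount of 1. In females it was at 0.635, 1.15, 0.872 and 0.936 TPM against 0.411, 0.211 and 0.335 (−0.52 ± 0.31, adjusted p = 0.293), without overlap. In Bmp2+/+ males it was at 2.48, 1.59, 0.291 and 1.78 against 0.862, 0.497 and 0.172 (−0.69 ± 0.32, adjusted p = 0.434), where control replicate 3 fell within the Kl/Kl range. Other annotated transcripts overlap it (Gm49513, Gm20369 and Mir6392).

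For the mean of the 3 comparisons the genes of the transcription factors, Srebf1 and Mlxipl, had the smallest fitted changes of the set, at −0.55 and −0.50. Srebf1 (ENSMUSG00000020538, chromosome 11, 60089915 to 60113408, minus strand, its end overlapping Rai1) was at 8.11, 4.71, 2.88 and 3.24 TPM in Bmp2+/+ male controls and at 10.1, 0.675 and 1.24 in Kl/Kl. The highest value of all 24 libraries was thus in a Kl/Kl male, replicate 2, the same animal whose Fasn lay among the controls. In females it was at 1.93, 5.25, 3.31 and 3.45 TPM against 4.63, 1.9 and 1.16, and in ∆UCS males at 5.15, 3.61, 7.17 and 5.51 against 4.91, 4.53, 3.61 and 1.42. Every pair of groups overlapped. The changes were −0.73 ± 0.52, −0.40 ± 0.51 and −0.51 ± 0.47 (adjusted p = 0.634, 0.624 and 0.525), and the mean was −0.55 ± 0.29 (adjusted p = 0.159). The mean passed the threshold after median-of-ratios scaling (−0.83, adjusted p = 0.0128), with limma voom (−1.18, 0.00884) and without Bmp2+/+ male Kl/Kl replicate 2 (−0.80, 0.0188). The table counts a gene, so the Srebf1 isoforms are not separated.

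Mlxipl (ENSMUSG00000005373, chromosome 5, 135118744 to 135167237, plus strand) was at 1.98, 2.01, 2.73 and 1.45 TPM in Bmp2+/+ male controls and at 3.41, 0.636 and 0.797 in Kl/Kl. In females it was at 0.875, 2.76, 3.09 and 1.86 TPM against 1.44, 1.12 and 0.861, and in ∆UCS males at 2.57, 2.14, 4.14 and 2.11 against 1.14, 2.32, 1.73 and 0.827. All 3 pairs of groups overlapped, and as with Srebf1 the highest male Kl/Kl value was replicate 2. The changes were −0.42 ± 0.32, −0.50 ± 0.31 and −0.58 ± 0.29 (adjusted p = 0.663, 0.313 and 0.313). The mean fell by 0.50 ± 0.18 at an adjusted p of 0.0433, a call lost with all 24 libraries (−0.35, adjusted p = 0.18). With 1 library left out it held only without male control replicate 1, male Kl/Kl replicate 2 or female control replicate 1 of the Bmp2+/+ mice, or without ∆UCS control replicate 4 or ∆UCS Kl/Kl replicate 2 or 4. The adjusted p reached 0.155, without Bmp2+/+ male Kl/Kl replicate 4.

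The 10 genes varied together across libraries. Over the 22 libraries, the correlation of a gene's log2(TPM + 1) with the mean of the other 9 ran from 0.52 for Srebf1 and 0.728 for Mlxipl to 0.953 for Fasn and 0.965 for Acaca. With group means removed it ran from 0.439 for Srebf1 to 0.94 for Acaca. These are descriptions across libraries that share the scaling of the table and the groups. The summed TPM of the 10 genes rests mostly on Thrsp, Scd1 and Fasn. Their means in Bmp2+/+ male controls were 297, 208 and 133 TPM, followed by Acly at 11.5. The sum was 551 to 817 in Bmp2+/+ male controls and 122 to 558 in Kl/Kl. It was 682 to 1235 and 157 to 590 in females, and 706 to 1503.3 and 163 to 437 in ∆UCS males. Counted gene by gene, every kept Kl/Kl library lay below every control for 2 genes in Bmp2+/+ males (Angptl8 and Thrsp), against 1.19% of all genes tested, for 5 in females (Scd1, Fasn, Elovl6, Pnpla3 and Angptl8), against 1.64%, and for 7 in ∆UCS males (all but Elovl6, Srebf1 and Mlxipl), against 2.1%. As labelled, with all 24 libraries, the counts were 0 (0.282% of all genes), 2 (0.503%) and 7 (2.1%).

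The library names fall into 2 sets, with all ∆UCS libraries in set 1, all females in set 2 and the Bmp2+/+ males in both. Within set 1, Bmp2+/+ males (2 Kl/Kl and 2 controls) had a median change of −0.33 over the 10 genes with 8 of 10 below 0. Fasn was at −1.64 and Scd1 at −1.18 there. Within set 2 (1 Kl/Kl and 2 controls, the lone library assumed to vary like the others) the median was −1.57, with Fasn at −4.45 and Scd1 at −3.08, values that rest on 1 Kl/Kl animal. Set 2 alone called 4 genes lower in females, Fasn, Scd1, Elovl6 and Pnpla3, against 0.292% of all genes. Without Bmp2+/+ male Kl/Kl replicate 2, 2 of the 10 were called in males in place of 0, among 10 genes called lower in all. Without female Kl/Kl replicate 4 the female count became 4, among 13 genes, and without female control replicate 1 it became 2, among 38.

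Adipoq (ENSMUSG00000022878, chromosome 16, 22965286 to 22976779, plus strand) did not follow the lipogenic genes. It was at 54.2, 48.5, 51.3 and 42.1 TPM in Bmp2+/+ male controls and 72.5, 75.4 and 51.4 in Kl/Kl, at 51.4, 45.5, 46.9 and 49.2 against 55.8, 57.8 and 44.3 in females, and at 46, 48.5, 49.4 and 53.7 against 33.5, 68.8, 46.8 and 25.8 in ∆UCS males. Its change was 0.36 ± 0.24, 0.12 ± 0.24 and −0.26 ± 0.22 (adjusted p = 0.617, 0.774 and 0.499), and the mean of 0.07 ± 0.14 (adjusted p = 0.725) turned to −0.26 under median-of-ratios scaling (adjusted p = 0.282). Relative to Adipoq, that is after subtracting its log2(TPM + 1) in each library, the 10 genes were still below 0 in every comparison. Their medians were −1.07 in Bmp2+/+ males, −1.12 in Bmp2+/+ females and −1.15 in ∆UCS males, against −0.27, 0.18 and 0.52 over all genes.

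In the separate comparisons 0 of the 10 genes were called lower relative to Adipoq, against 0.0302%, 0.0201% and 0.0101% of all genes, and 0 were called higher, against 0.242%, 1.26% and 0.785%. At an unadjusted p under 0.05, limma put 7, 6 and 7 of the 10 lower, against 9.43%, 2.14% and 0.513% of all genes. Using median-of-ratios scaling first, 0, 0 and 1 were called, against 0.0201% of all genes in the last, and with Adipoq as a covariate 0, 0 and 4, against 0.111% in the last. Relative to the summed TPM of 4 adipocyte genes (Adipoq, Plin1, Cidec and Lipe) 0, 0 and 0 were called. Of these, Plin1 was itself called lower for the mean of the 3 comparisons, and Lipe was after median-of-ratios scaling. The part of their change in this result was not tested. The medians on that scale were −0.65, −0.73 and −1.05, against 0.15, 0.57 and 0.63 over all genes. For the mean of the 3 comparisons 8 of 10 fell relative to Adipoq, against 2.01% of all genes called lower and 6.31% higher, and at an unadjusted p under 0.05 all 10 were lower, against 5.26%. Fasn fell by 3.19 ± 0.50 (adjusted p = 0.000331), Scd1 by 2.56 ± 0.42 (0.000445) and Angptl8 by 1.44 (0.00274), while Srebf1 (−0.62, adjusted p = 0.164) and Mlxipl (−0.57, 0.0522) did not pass. With all 24 libraries 5 passed, against 0.423% of all genes, and relative to the 4 summed adipocyte genes 6 passed, against 0.715%. Without Bmp2+/+ male Kl/Kl replicate 4 the count relative to Adipoq was 4, among 50 genes called lower in all. Without Bmp2+/+ male Kl/Kl replicate 2 it was 10, among 266. Per TPM of Adipoq, Fasn was at 3.22 to 7.71 in ∆UCS controls and at 0.503, 0.356, 0.189 and 2.34 in ∆UCS Kl/Kl.

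**Figure D3:**
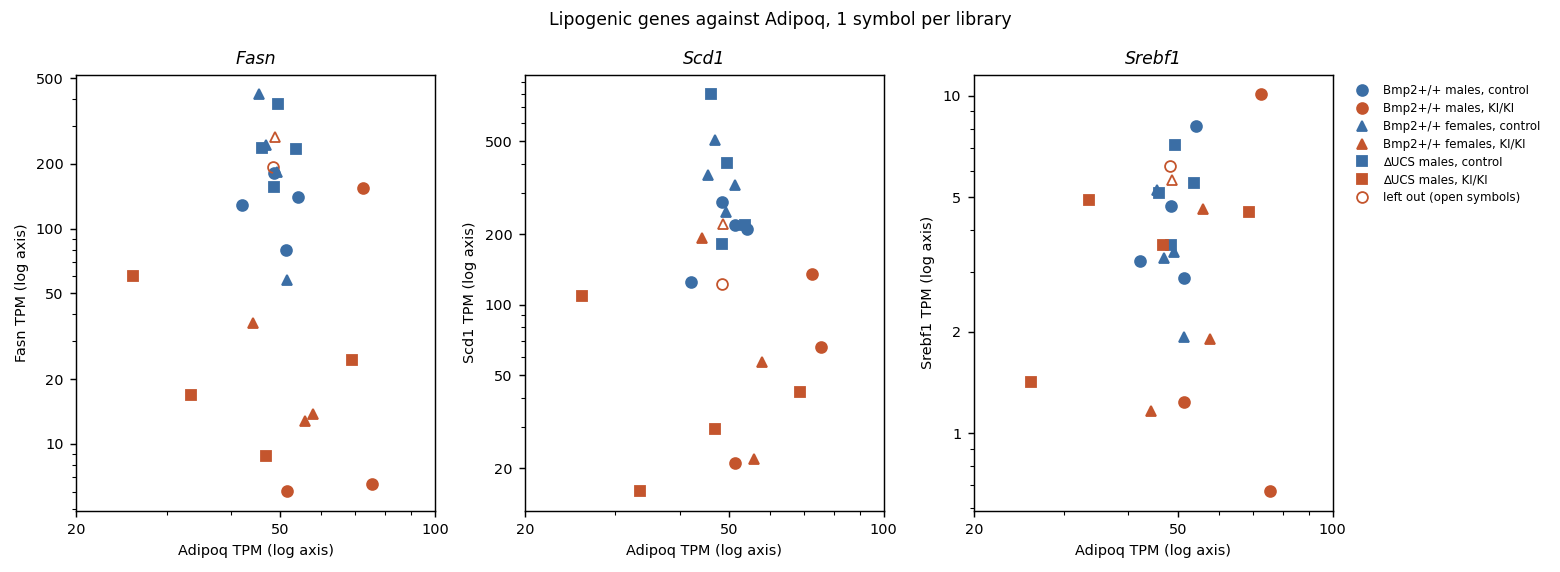
TPM of Fasn, Scd1 and Srebf1 against TPM of Adipoq, 1 symbol per library (both axes log), blue for control and orange for Kl/Kl, open for the 2 libraries left out. Kl/Kl libraries spread along the Adipoq axis from 25.8 to 75.4, while most lie below the controls for Fasn and Scd1 and mix with them for Srebf1.

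The ∆UCS allele was compared with Bmp2+/+ in males, where the allele overlaps in part with library set, a term of the fit. Among controls the mean TPM of every gene of the set was higher with ∆UCS, from 1.13 times for Srebf1 and 1.23 times for Angptl8 to 2.07 times for Acaca and 2.71 times for Acly. The differences were within the spread of the libraries. Acly differed by 1.39 ± 0.70 (limma adjusted p = 0.959), Acaca by 0.65 ± 0.35 (0.959), Fasn by 0.60 ± 0.92 (0.959) and Scd1 by 0.26 ± 0.73 (0.963). One ∆UCS control, replicate 3, held the highest Acly (74 TPM), Acaca, Elovl6, Thrsp, Pnpla3, Angptl8 and Mlxipl of all 24 libraries. Among Kl/Kl males the mean TPM of Fasn was 27.6 with ∆UCS against 55.9 with Bmp2+/+, that of Acaca 0.411 against 0.813 and that of Pnpla3 0.273 against 0.51, while Thrsp and Angptl8 were 0.992 and 0.978 times as high in Bmp2+/+. With library set in the fit, Fasn was at −0.02 ± 0.92, Thrsp at −0.01 ± 0.45 and Scd1 at −0.89 ± 0.73. The medians of the 10 were 0.40 in controls (9 of 10 above 0) and −0.05 in Kl/Kl (9 of 10 below 0), against −0.17 and −0.01 over all genes. Fitted with only the groups compared, they were 0.67 and −0.37, against −0.26 and 0.10 over all genes. Limma called 0 genes of any kind in either comparison (0.0%), with 216 and 180 genes at an unadjusted p under 0.05 and 0 of the 10 among them. Of all genes, 1.79% and 1.72% were lower at that unadjusted p. Median-of-ratios scaling and limma voom called 0 as well. With all 24 libraries the medians were 0.55 in controls (10 of 10 above 0) and −0.23 in Kl/Kl (10 of 10 below 0), again with 0 genes of any kind called, and 166 and 89 genes were at an unadjusted p under 0.05. Over all genes they were −0.17 and −0.01. An SE of 0.92 for Fasn leaves a difference of several fold undetectable with these numbers.

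Relative to Adipoq the ∆UCS comparisons also called 0 of the 10, with medians of 0.56 in controls and 0.73 in Kl/Kl (0.73 and 0.52 with all 24 libraries). In Kl/Kl, 29.1% of all genes were called higher relative to Adipoq and the median over all genes was 0.77. Adipoq itself differed by −0.78 ± 0.26 between ∆UCS and Bmp2+/+ Kl/Kl males (unadjusted p = 0.00663, adjusted p = 1). Without Bmp2+/+ male Kl/Kl replicate 2, or without ∆UCS Kl/Kl replicate 2, 3 of the 10 were called higher with ∆UCS, in fits that called 4271 and 7716 of all 9932 genes higher, so nothing is read from these 3.

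Whether the Klotho effect itself differed was tested by interaction terms. Between ∆UCS and Bmp2+/+ males the 10 genes had a median of −0.60, with 9 of 10 below 0, against 0.16 over all genes. Acly differed by −1.41 ± 0.91 and Acaca by −0.92 ± 0.45 (unadjusted p = 0.0582), Scd1 by −1.14 ± 0.95 and Fasn by −0.63 ± 1.19, all at adjusted p of 0.956 to 0.964. Between Bmp2+/+ females and males the median was −0.34, with 7 of 10 below 0, against 0.19 over all genes. Limma called 0 genes for either interaction (0.0%), with 205 and 142 genes at an unadjusted p under 0.05 and 0 of the 10 among them. At that unadjusted p 0.997% and 0.141% of all genes were lower. Again median-of-ratios scaling and limma voom called 0. With all 24 libraries the medians were −0.91 (10 of 10 below 0) and −0.36 (6 of 10 below 0), against 0.16 and 0.17 over all genes, with 0 genes called and 166 and 32 at an unadjusted p under 0.05. Acaca and Pnpla3 were lower at that unadjusted p in the first of these, against 0.624% of all genes. Thus 4 calls in ∆UCS males and 0 in Bmp2+/+ males do not show that the effects differ. Relative to Adipoq the ∆UCS interaction had a median of 0.03 over the 10 genes and 0.78 over all genes, and with all 24 libraries the 10 genes had a median of −0.34.

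Other genes of the pathway moved in part. Of 37 further lipogenic and SREBP1-linked genes 28 were tested, and for the mean of the 3 comparisons 7 fell and 2 rose (median −0.18 against 0.22 over all genes). Over all genes 3.53% were called lower and 23.4% higher for that mean. Agpat2, which makes phosphatidic acid on the way to triglyceride, fell by 1.91 ± 0.29 (adjusted p = 0.000292). It was also called in Bmp2+/+ males alone, but not after median-of-ratios scaling or with all 24 libraries. Slc25a1, the citrate carrier that feeds Acly, fell by 1.5 ± 0.42 (0.0152), Dgat2, which completes triglyceride, by 0.96 ± 0.28 (0.0187), and Acss2, which makes acetyl-CoA from acetate, by 0.83 ± 0.20 (0.00598). Hsd17b12, a fatty acid elongation enzyme, fell by 0.34 ± 0.08 (0.00783). Insig2, which holds SREBPs in the endoplasmic reticulum, rose by 0.42 ± 0.10 (0.00744). The remaining calls were Insig1 and Pgd, which fell, and Hacd3, which rose. After median-of-ratios scaling 15 of the 28 were called lower and 0 higher, so the rises of Insig2 and Hacd3 were not called there. With all 24 libraries 4 were lower (Acss2, Agpat2, Hsd17b12 and Insig1) and 1, Insig2, was higher. Slc25a1 and Dgat2 were thus lost with all 24 (adjusted p = 0.095 and 0.178), and also without Bmp2+/+ male Kl/Kl replicate 4 (0.0947 and 0.109). Insig2 was lost without that library (0.34, adjusted p = 0.0593), with limma voom (0.31, 0.168) and after median-of-ratios scaling (0.21, 0.0971).

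For cholesterol synthesis, the arm of SREBP2, the median was near 0 and below the 0.22 over all genes. Of 18 genes 15 were tested, 1 fell (Hmgcs1, −0.57 ± 0.16, adjusted p = 0.0173) and 1 rose (Fdft1, 0.42 ± 0.15, 0.0448), with a median of 0.02. Over all genes 3.53% were called lower and 23.4% higher. With median-of-ratios scaling 4 of the 15 were lower and 0 higher, and 12 were below 0. The median was then −0.23, against 0.0 over all genes, of which 10.6% were called lower. Of 12 genes of glucose uptake and insulin signalling 8 were tested, with a median of −0.50. Pygl, a glycogen phosphorylase, fell by 1.03 ± 0.23 (0.00464), Slc2a4, the insulin-regulated glucose transporter GLUT4, by 0.78 ± 0.22 (0.0161), Hk2, a hexokinase, by 0.69 ± 0.18 (0.00973) and Pfkfb3 by 0.57 ± 0.20 (0.0407). Slc2a1, the transporter GLUT1, rose by 0.42 ± 0.13 (0.0253), where 23.4% of all genes were called higher. With all 24 libraries the calls of Slc2a4, Hk2 and Pfkfb3 were lost, and those of Pygl and Slc2a1 were made (median −0.36).

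**Figure D4:**
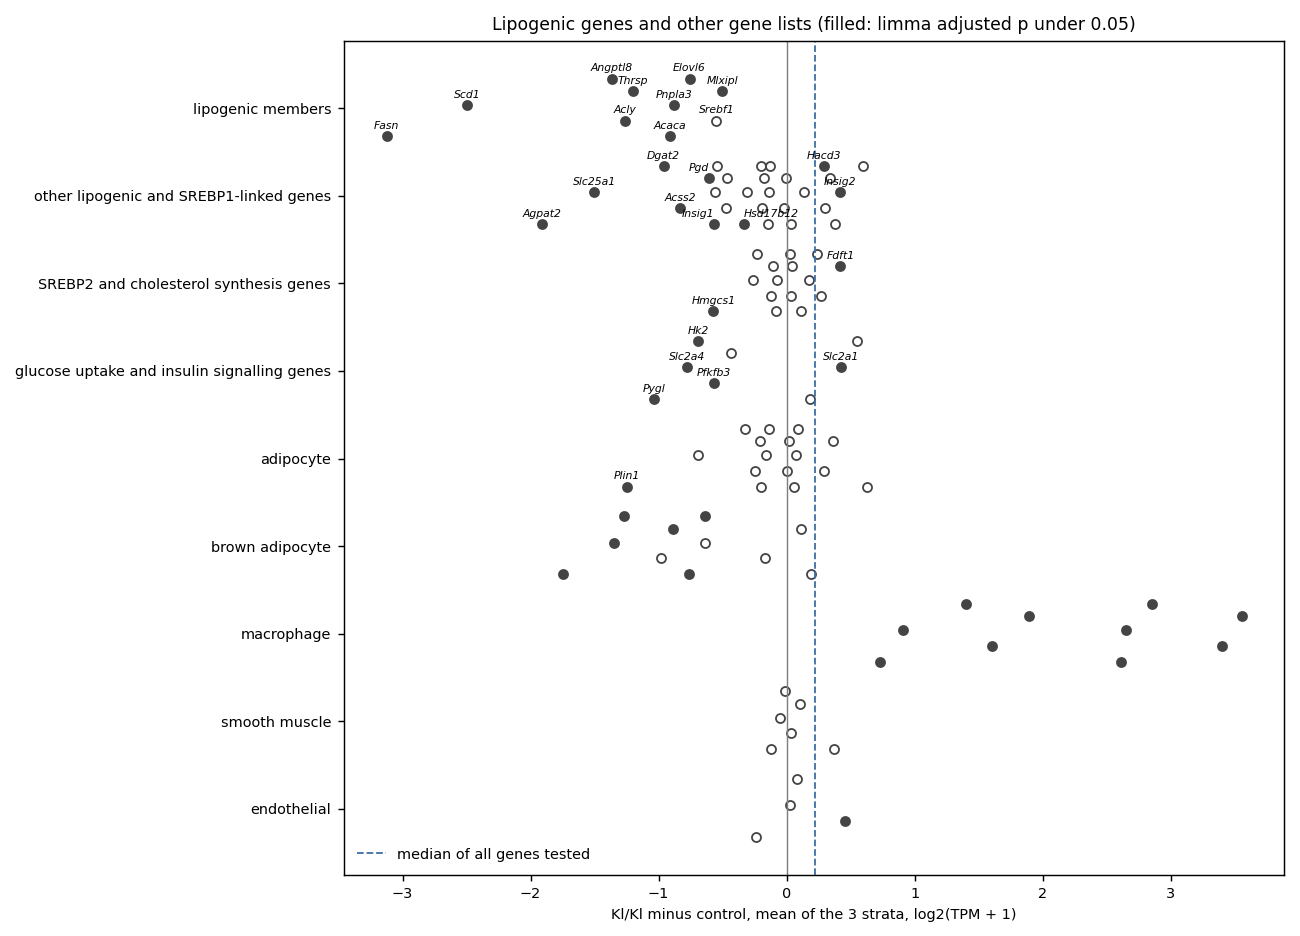
Change for the mean of the 3 Klotho comparisons (log2(TPM + 1), Kl/Kl minus control) of each tested gene of the lipogenic set and of 8 other lists, filled where the limma adjusted p was under 0.05, with a dashed line at the median of all genes (0.22). The lipogenic set lies below the line throughout, with Fasn at −3.12 and Scd1 at −2.50, and the macrophage markers lie above it.

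Markers of other cell types moved with the groups. Macrophage markers were higher in Kl/Kl, with 10 of 10 tested genes of 12 listed called for the mean (median 2.25), for example Cd68 (3.40 ± 0.21, adjusted p = 3.01e-09). Their summed TPM was 428 to 736 in Bmp2+/+ male Kl/Kl and 43.3 to 211 in controls, 717 to 750 and 51.6 to 89.4 in females, and 272 to 462 and 40.6 to 128 in ∆UCS males. Brown adipocyte markers were lower, with 6 of 11 tested genes of 12 called (median −0.76), among them Ucp1, the uncoupling protein (−1.75 ± 0.40, 0.00518), Otop1 (−1.27 ± 0.18, 0.000141) and Elovl3 (−1.34 ± 0.40, 0.0201). Their summed TPM was 173 to 249 against 452 to 718 in Bmp2+/+ males, 149 to 321 against 303 to 601 in females and 144 to 747 against 491 to 630 in ∆UCS males. Of 16 general adipocyte markers 1 was called, Plin1, the lipid droplet coat protein (−1.25 ± 0.38, 0.0228), and their median was −0.06. After median-of-ratios scaling 4 of the 16 were called lower (Aqp7, Car3, Lipe and Plin1), 14 of 16 were below 0 and the median was −0.34. With all 24 libraries 0 were called and the median was −0.04. Their summed TPM was 2824.4 to 4535.4 against 2495.1 to 3321.3 in Bmp2+/+ males, 2205.7 to 4194.4 against 2643.2 to 3163.8 in females and 2043.4 to 5284.4 against 2566.3 to 3304.0 in ∆UCS males, and overlapped in each. That scaling called 8 brown adipocyte markers lower (median −1.09) and 10 macrophage markers higher (median 2.02), and with all 24 libraries the counts were 5 and 10. The part of these shifts in the lipogenic values was not tested.

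Smooth muscle markers had 0 of 6 called by limma for the mean (0.01 median), with Myh11 at −0.05 ± 0.28 and Lmod1 at 0.03 ± 0.11. The summed TPM of smooth muscle markers was 115 to 627 in Bmp2+/+ male Kl/Kl against 74.3 to 298. It was 201 to 279 against 147 to 279 in females, and 175 to 548 against 270 to 429 in ∆UCS males. Endothelial markers had 1 of 4 tested of 6 called, Pecam1, higher (0.46 ± 0.10, 0.00456), where 23.4% of all genes were called higher. After median-of-ratios scaling Pecam1 was not called and Cdh5 was called lower. Schwann cell markers had S100b lower (−0.98 ± 0.16, 0.000448) and Pmp22 higher (0.31 ± 0.11, 0.0447) of 4 tested of 6. Pmp22 was not called after that scaling or with all 24 libraries. Airway secretory genes had Reg3g (2.70 ± 0.36, 6.03e-05) and Scgb3a1 (2.94 ± 0.46, 0.000367) higher of 5 tested of 6. Their summed TPM ran from 6.3 in a ∆UCS control to 3425.7 in a female Kl/Kl. None of 7 hepatocyte genes reached the filter, and albumin was at most at 0.166 TPM, so markers of the hepatocyte, the other major lipogenic cell, were near 0 in all libraries.

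The genes whose pattern over the 22 libraries was most like the mean of the set were Tkt (r = 0.961) and Taldo1 (0.933), enzymes of the pentose phosphate pathway, Dlat (0.943), a subunit of pyruvate dehydrogenase, Gpd2 (0.934), the mitochondrial glycerol-3-phosphate dehydrogenase, Eno1b (0.924) and Ldha (0.921), which belong to glycolysis, and Acot11 (0.92) and Dhrs7 (0.92). Eno1b is a near copy of Eno1, and its values are uncertain where counting could split reads between them. Adipoq had r = −0.057 with the same mean. These correlations are over libraries of 6 groups that share the table's scaling, and carry no test.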

How the data were processed

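RNA was measured in 24 mouse aortas, frozen at once after dissection. Per the labels' protocols, RNA was purified with miRNeasy and polyA RNA went into directional libraries made with a New England Biolabs kit. Expression was deposited as TPM. Per the submitters' processing notes, Partek and mm39 were used. The sources used here do not give the aligner, the annotation release or whether strand was used. The lowest deposited TPM values followed the genomic span of a gene, so a gene was compared between libraries only. Sums of TPM over a list weight its genes unevenly and were likewise compared between libraries only. The lowest values stood for 0 reads plus a constant of 0.0001 read, which gave estimated reads. Of 255224 values between 0.5 and 20 reads, 73.0% lay within 0.05 of a whole number. The columns not used numbered 0.

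Genes with TPM of at least 1 in at least 4 libraries (9933) were fitted on log2(TPM + 1) with limma 3.58.1 (lmFit, eBayes with a trend) in R 4.3.3, with 6 group means and the library set read from library names. Without the 2 libraries named above, 22 entered. P-values are two-sided, with Benjamini-Hochberg adjustment over all genes and a threshold of 0.05. In the fit relative to Adipoq, its log2(TPM + 1) was subtracted from each gene in each library. The fit was tested on simulated data. Sequences are from RefSeq (GRCm38.p6).

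The genes, lists, the library omission and tests were chosen with earlier results of these data known. Named outside the set were up to 6 genes of each list with the smallest adjusted p among those called in a Klotho comparison, otherwise 2 with the smallest p, and the 8 genes most correlated with the set. The mean of the 3 Klotho contrasts was added after the data were seen. Replicates are separate animals per the labels. Replicate numbers were not used as pairs. Alternatives were another scaling, pseudocount, filter, limma voom on estimated reads, no library set, age, a replicate block, each set or only the compared groups, other references for fat, and leaving out each library.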

Additional observations from a re-analysis of the deposited data

Results flagged for a closer look

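Among the 4 ∆UCS male Kl/Kl libraries, replicate 4 had Angptl8 at 3.56 TPM and stood far above the other 3, at 0.735, 0.865 and 0.883 TPM. The gap to the nearest of them was 0.915 of the whole range of the group. It also lay close to the lowest ∆UCS control (3.91 TPM). The same library had the highest ∆UCS Kl/Kl values of Fasn (60.4 TPM), Scd1 (109 TPM), Thrsp (250 TPM) and Acly (9.71 TPM) and the lowest Adipoq of all 24 libraries (25.8 TPM). Groups of 4 were examined for each gene of the set and Adipoq, 66 in all as labelled, and chance marks about 1 in 20. The Angptl8 value was the only 1 found, which is no more than chance would mark.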

How the results depend on the processing

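Outside the settings that leave out 1 library, 623 of the recomputed values kept their direction and side of the threshold, 19 newly passed it, 50 no longer did and 10 changed sign. Of the 10 lipogenic genes, the count called in Bmp2+/+ males went from 0 to 1 in set 2 alone, which holds 1 of the Kl/Kl libraries used. In females it went from 0 (0.0201% of all genes called lower) to 2 with median-of-ratios scaling (1.54%). It went to 1 there with a TPM of at least 5 (0.108%) or limma voom (1.21%). With no library set or only the compared groups it was 1, and in set 2 alone it was 4. In ∆UCS males it went from 4 (0.111%) to 0 with all 24 libraries (0.0%), also with median-of-ratios scaling (0.0101%) or limma voom. It was 0 with no filter (0.0369%) or in set 1 alone, 2 with age as a covariate, and 1 with only the compared groups. For the mean of the 3 it went from 9 (3.53%) to 5 with a TPM of at least 5 (7.1%), where 6 of the 10 were tested. Counts in this section without a share beside them are not read as results about the 10 genes. Relative to Adipoq, the ∆UCS count went from 0 to 1 with median-of-ratios scaling, a pseudocount of 0.1 or no library set and to 4 with Adipoq as a covariate, and the count for the mean from 8 to 5 with all 24 libraries. In the fit with a replicate block the ∆UCS count was 1, and 2 relative to Adipoq, while 9 and 8 were called for the mean. Same-numbered libraries had correlations of their deviations from −0.477 to 0.322, so the replicate numbers gave no sign of pairs. Some Kl/Kl and control libraries have equal ages and adjacent numbers in their names. Such pairs were not tested. The cause of these shifts was not tested.

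With 1 library left out, the count ranged from 0 to 2 in Bmp2+/+ males, 0 to 4 in females, 0 to 5 in ∆UCS males and 7 to 10 for the mean, and relative to Adipoq from 0 to 2, 0 to 3, 0 to 3 and 4 to 10. For ∆UCS against Bmp2+/+ Kl/Kl relative to Adipoq it ranged from 0 to 3. In Bmp2+/+ males, Acly changed sign in set 1 alone (0.36) and ranged from −1.29 to 0.36 with 1 library left out, and Elovl6 did so in set 1 alone (0.08) and ranged from −0.48 to 0.08. Adipoq changed sign in females with median-of-ratios scaling (−0.37, and −0.34 with all 24 libraries) and limma voom (−0.42 and −0.38), and in the mean with the same settings (−0.26, −0.27, −0.28 and −0.28), where leaving out 1 library gave −0.01 to 0.14. Over all genes, calls for the mean were 351 lower and 2328 higher, against 1686 and 1493 with limma voom, 1055 and 864 after median-of-ratios scaling, and 189 and 1539 with all 24 libraries. Depth limits Angptl8 most, with 31 to 737 estimated reads per library.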
